A study of Mus musculus with 4 samples.

Results

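The 34 genes described here encode the enzymes and regulators of cholesterol synthesis and of fatty acid synthesis, elongation and desaturation, and were chosen by gene symbol (older symbols counted, such as Sc4mol for Msmo1). Of the 34 genes, 33 had a probe set that the annotation assigned to that gene alone, and Acat2 was not analysed here. The 33 genes comprised 22 of the sterol branch and 11 of the fatty acid branch, out of 12259 genes measured in all. Expression was measured in the entire small intestine, with the mesentery trimmed off, of CF + lubiprostone, CF control, WT + lubiprostone and WT control mice. CF mice were homozygous for the cftr-tm1Unc null allele of Cftr, which encodes an epithelial chloride channel, and WT mice were their littermates, all congenic on the C57BL/6J background. All 4 groups, WT control included, were kept on the liquid diet Peptamen, which keeps the CF intestine from becoming obstructed. Lubiprostone, a prostone used against constipation, was gavaged once a day in Peptamen at 10 µg/kg body weight for 2 weeks, and the control mice are labelled as receiving no treatment. The age and sex of the pooled mice, and the time since their last meal, are not given in the sources used here. Equal amounts of RNA from the mice of a group were combined, and the 4 pools were run on 1 Affymetrix Mouse 430 2.0 array each, with 8 mice in the CF + lubiprostone pool, 10 in CF control, 7 in WT + lubiprostone and, for WT control, either 8 or 10, since the methods and the series description differ.

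Cells obtain cholesterol by uptake or by building it from acetyl-CoA through mevalonate, isoprenoid pyrophosphates, squalene and lanosterol. The genes of this route are activated by SREBP-2, the product of Srebf2, which Scap escorts out of the endoplasmic reticulum when membrane sterol is low and which the Insig proteins hold back when it is high, while the related factor SREBP-1, the product of Srebf1, favours the genes of fatty acid synthesis. The small intestine is one of the main sites of cholesterol synthesis in the body, and it also takes up dietary and biliary sterol and returns part of it to the lumen.

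Each value is a signal, an intensity in arbitrary units that combines the probes of a probe set. With 1 pool and 1 array per group there was no spread between replicates, so no test of any difference was possible and every ratio below compares 2 arrays. A gene's signal is the geometric mean over its probe sets that reached the array's median on at least 1 array, and its log2 ratio is the mean over those probe sets. The array medians were 119.6 for CF + lubiprostone, 109 for CF control, 123 for WT + lubiprostone and 124 for WT control, and a signal below its array's median is called dim here, since no detection calls came with the values used. Thresholds of 3-fold, which the study used, and of 2-fold were applied. The only error that could be measured was the spread between probe sets of 1 gene, a median SD of 0.25 on the log2 scale for CF control over WT control in the 21 members with more than 1 kept probe set. It was 0.15 for CF + lubiprostone over CF control, 0.15 for WT + lubiprostone over WT control and 0.18 for CF + lubiprostone over WT + lubiprostone. The other measured members, among them Sqle, Fdps, Nsdhl, Dhcr7 and Fasn, had 1 kept probe set each and so no such spread. The Cftr signal was 176 in CF + lubiprostone, 171 in CF control, 595 in WT + lubiprostone and 870.5 in WT control, lower on both CF arrays. All 10 villus enterocyte markers measured, such as Vil1 and Fabp2, were above the median on each array. In RNA of a whole organ, fewer cells of a type and less RNA per cell cannot be told apart.

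The sterol branch was higher in the intestine of CF control than of WT control mice. The ratio was above 1 for 20 of its 22 genes, against 48.2% of all 11806 genes that could be compared, and the median ratio was 1.84-fold (log2 0.88), against a log2 median of -0.02 for all genes. At least 2-fold higher were 10 of the 22, where 2.8% of all genes were, and 5 of the 22 were at least 3-fold higher, where 1.16% were. None was 2-fold lower, against 4.84% of all genes. All 10 genes at 2-fold were enzymes. The 2 genes below 1 were Sc5d (log2 -0.15) and Stard4 (log2 -0.03). Both lay above 1 once each array was scaled to a common median, which moved the median of all genes to log2 0.16 and that of the branch to 1.06. After quantile normalization both stayed below 1, and the branch median was 0.89.

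In the plot of sterol branch signals by array, the CF control and CF + lubiprostone points lie to the right of the WT points for most enzymes up to Hsd17b7, and the 4 points draw together for the regulators.

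**Figure D1:**
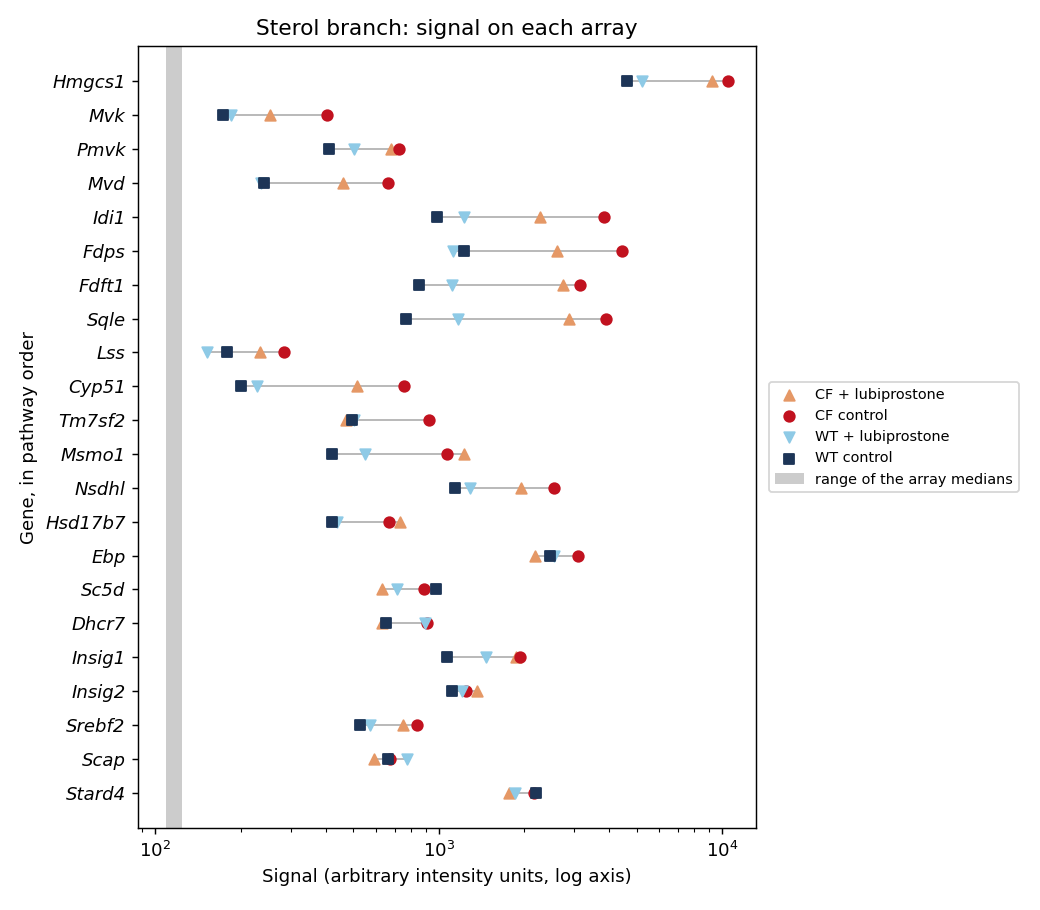
Signal (arbitrary intensity units, log axis) of each sterol branch gene on the 4 arrays, 1 point per array, with genes in pathway order from top to bottom and the range of the array medians in grey. Sqle had 2892 in CF + lubiprostone, 3911 in CF control, 1169.6 in WT + lubiprostone and 768 in WT control.

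Among the mevalonate enzymes, all 6 measured had a CF control signal above that of WT control, against 48.2% of all genes. Their median log2 ratio was 1.33. Idi1, which isomerizes isopentenyl pyrophosphate, had signals of 2285 in CF + lubiprostone, 3830.3 in CF control, 1229 in WT + lubiprostone and 986 in WT control. Fdps, the synthase of farnesyl pyrophosphate, had signals of 2621 in CF + lubiprostone, 4446 in CF control, 1125 in WT + lubiprostone and 1233 in WT control. Both CF pools exceeded both WT pools for these 2 genes, and CF control exceeded WT control 3.88-fold for Idi1 and 3.61-fold for Fdps, ranks 85 and 103 from the top among the 11806 genes. Mvd, which decarboxylates mevalonate pyrophosphate to the first isoprenoid unit, had signals of 459 in CF + lubiprostone, 664 in CF control, 236 in WT + lubiprostone and 242 in WT control. Hmgcs1, the cytosolic synthase that opens the pathway, had signals of 9249.6 in CF + lubiprostone, 10473 in CF control, 5239 in WT + lubiprostone and 4614 in WT control, again with both CF pools above both WT pools. CF control over WT control was 2.74-fold for Mvd and 2.27-fold for Hmgcs1. Mvk, the kinase of mevalonate, had signals of 254 in CF + lubiprostone, 403 in CF control, 185 in WT + lubiprostone and 174 in WT control, a ratio of 2.31-fold. Pmvk, the next kinase, had signals of 681 in CF + lubiprostone, 726 in CF control, 501 in WT + lubiprostone and 411 in WT control and was below 2-fold at log2 0.82.

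The squalene steps held the sterol gene with the highest ratio. Sqle, the squalene epoxidase that controls flux late in the pathway, had signals of 2892 in CF + lubiprostone, 3911 in CF control, 1169.6 in WT + lubiprostone and 768 in WT control, so that CF control exceeded WT control 5.09-fold, rank 58 from the top among all genes. Fdft1, the squalene synthase and the first step that serves sterols alone, had signals of 2756 in CF + lubiprostone, 3146 in CF control, 1114 in WT + lubiprostone and 854 in WT control. Its CF control over WT control ratio was 3.68-fold, rank 96. Lss, which closes squalene epoxide into lanosterol, had signals of 235 in CF + lubiprostone, 284 in CF control, 152 in WT + lubiprostone and 179 in WT control and a log2 ratio of 0.67 in the same comparison.

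The steps from lanosterol to cholesterol divided. Cyp51, the lanosterol demethylase, had signals of 514 in CF + lubiprostone, 754 in CF control, 228 in WT + lubiprostone and 200.3 in WT control. One of its 3 probe sets was below the array median on both WT arrays and on CF + lubiprostone, so its 3.76-fold ratio of CF control over WT control was 2.39-fold with dim signals at the array median, while its brightest probe set alone had signals of 2396 in CF + lubiprostone, 3521 in CF control, 923 in WT + lubiprostone and 849 in WT control. Msmo1, the methylsterol oxidase of the following steps, had signals of 1226 in CF + lubiprostone, 1073 in CF control, 551 in WT + lubiprostone and 421 in WT control, a ratio of 2.55-fold that was 2.19-fold after the same step. Nsdhl, a sterol dehydrogenase encoded on the X chromosome, had signals of 1961 in CF + lubiprostone, 2559 in CF control, 1295 in WT + lubiprostone and 1140.3 in WT control and a ratio of 2.24-fold. Xist, which female cells express, had signals of 1012 in CF + lubiprostone, 679.8 in CF control, 976 in WT + lubiprostone and 308 in WT control, and the Y-linked Eif2s3y had signals of 805 in CF + lubiprostone, 884 in CF control, 829 in WT + lubiprostone and 1242 in WT control. WT control thus had the lowest Xist and the highest Eif2s3y signal, and the part of sex in the results was not tested. The other 5 genes of these steps were closer between genotypes, with log2 ratios of CF control over WT control of 0.90 for the sterol reductase Tm7sf2, 0.66 for the ketosteroid reductase Hsd17b7, 0.34 for the sterol isomerase Ebp, -0.15 for the sterol desaturase Sc5d and 0.47 for Dhcr7, the reductase of the last step to cholesterol. Hsd17b7 had signals of 732 in CF + lubiprostone, 666 in CF control, 436 in WT + lubiprostone and 421 in WT control, with both CF pools above both WT pools. Ebp, also on the X chromosome, had signals of 2190.0 in CF + lubiprostone, 3114 in CF control, 2565 in WT + lubiprostone and 2464 in WT control, with CF + lubiprostone the lowest of the 4. Dhcr7 had signals of 629 in CF + lubiprostone, 909 in CF control, 895 in WT + lubiprostone and 654 in WT control, so that CF control and WT + lubiprostone were nearly equal and above the other 2 pools. The brightest of the 3 Sc5d probe sets had signals of 3675 in CF + lubiprostone, 5632 in CF control, 3972 in WT + lubiprostone and 4664 in WT control. The median log2 ratio was 0.78 over the 8 genes from Cyp51 to Dhcr7, against 1.88 over the 3 squalene genes. The 3 probe sets of Sc5d did not share a direction and ranged between log2 -0.63 and 0.27.

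The regulators differed less than the enzymes, with a median log2 ratio of 0.41 for 4 genes. None was at 2-fold, against 2.8% of all genes higher and 4.84% lower. Insig1, an endoplasmic reticulum anchor of the Scap complex that is itself an SREBP target, had signals of 1876 in CF + lubiprostone, 1945 in CF control, 1471 in WT + lubiprostone and 1070.0 in WT control. Srebf2 had signals of 749.6 in CF + lubiprostone, 837 in CF control, 574 in WT + lubiprostone and 529 in WT control, a log2 ratio of 0.66 for CF control over WT control. The ratio was 0.16 for Insig2, the other anchor, and 0.03 for Scap, both smaller than the median SD between probe sets. Stard4, a cytosolic sterol carrier, had signals of 1772 in CF + lubiprostone, 2164 in CF control, 1862 in WT + lubiprostone and 2212 in WT control, close to equal between the control pools.

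Because the sterol genes were higher together, the sequence in front of them was examined. RefSeq promoter windows (GRCm38.p6, 250 bases before to 50 after a start) were found for 27 of the 34 genes, 19 of the sterol branch, Acat2 included, and 8 of the fatty acid branch. The windows of Hmgcs1, Mvd, Idi1, Cyp51 and Msmo1 are shown for enzymes at least 2-fold higher in CF control, that of Sc5d for an enzyme that was not, and that of Fasn for the fatty acid branch. Each is the 150 bases directly before the start, 5′ to 3′ on the strand of the gene. Capitals mark CCAAT on either strand (ATTGG when read on the other strand), the core bound by NF-Y, and in Hmgcs1 also TCACNCCAC, a core of the sterol regulatory element bound by SREBPs. They lie at chr13:119690201-119690350 on the plus strand (Hmgcs1), chr8:122443423-122443572 on the minus strand (Mvd), chr13:8885456-8885605 on the plus strand (Idi1), chr5:4104698-4104847 on the minus strand (Cyp51), chr8:64733579-64733728 on the minus strand (Msmo1), chr9:42264301-42264450 on the minus strand (Sc5d) and chr11:120824548-120824697 on the minus strand (Fasn).
Hmgcs1: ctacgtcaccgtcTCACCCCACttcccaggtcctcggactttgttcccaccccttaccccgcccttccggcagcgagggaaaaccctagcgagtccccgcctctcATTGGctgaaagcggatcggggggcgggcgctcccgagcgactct
Mvd: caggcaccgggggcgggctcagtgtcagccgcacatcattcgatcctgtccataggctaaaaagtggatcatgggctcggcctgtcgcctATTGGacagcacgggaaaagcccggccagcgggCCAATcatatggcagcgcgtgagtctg
Idi1: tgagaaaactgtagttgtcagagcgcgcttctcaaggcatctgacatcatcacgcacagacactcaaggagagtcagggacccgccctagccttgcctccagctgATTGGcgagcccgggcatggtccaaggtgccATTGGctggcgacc
Cyp51: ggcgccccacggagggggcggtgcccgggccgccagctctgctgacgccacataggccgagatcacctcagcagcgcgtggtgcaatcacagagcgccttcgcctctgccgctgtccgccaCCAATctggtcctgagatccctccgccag
Msmo1: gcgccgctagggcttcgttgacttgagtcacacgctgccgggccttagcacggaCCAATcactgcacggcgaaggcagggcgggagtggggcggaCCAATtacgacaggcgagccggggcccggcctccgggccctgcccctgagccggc
Sc5d: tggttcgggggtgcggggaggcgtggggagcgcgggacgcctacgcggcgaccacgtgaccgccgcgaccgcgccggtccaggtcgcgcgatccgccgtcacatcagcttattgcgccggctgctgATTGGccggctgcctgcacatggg
Fasn: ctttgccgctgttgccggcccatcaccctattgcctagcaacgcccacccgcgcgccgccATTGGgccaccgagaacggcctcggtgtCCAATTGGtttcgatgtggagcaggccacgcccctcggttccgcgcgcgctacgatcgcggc

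CCAAT on either strand was in a window of 17 of the 19 sterol genes (89.5%) and of 5 of the 8 fatty acid genes, against 41.1% of 27025 genes with a window and 42.4% of the 9889 such genes that were measured here. The longer CCAATCA, which contains CCAAT and whose reverse complement is TGATTGG, was in a window of 11 of the 19 sterol genes (57.9%) and in 1 of the 8 fatty acid genes, Srebf1, against 11.5% of the measured genes. Of the sterol genes at least 2-fold higher in CF control, Mvk, Mvd, Idi1, Msmo1 and Nsdhl carried CCAATCA and Hmgcs1 and Cyp51 did not, while the windows of Sqle, Fdft1 and Fdps were not analysed here. Lss, Tm7sf2, Hsd17b7, Ebp, Sc5d and Dhcr7, all below 2-fold, carried it as well. TCACNCCAC (GTGGNGTGA on the other strand) was in the window of Hmgcs1 alone, at -137 to -129 from the start, against 1.36% of measured genes. The full SRE-1 element, which contains it, was in none. GGGCGG on either strand, the core of Sp1 sites, was in a window of 18 of the 19 sterol genes and of 4 of the 8 fatty acid genes, against 66.8% of measured genes. CANNTG, the E-box, which reads the same on both strands, was in 15 of 19, against 68.3%. Of looser or shorter forms, TCACNCNAC (GTNGNGTGA) was in 2 of 19, against 3.32% of measured genes, and CACNCCAC (GTGGNGTG), which TCACNCCAC contains, in 3 of 19, against 7.59%. In Fasn, 2 of the 3 CCAAT matches overlap, as CCAATTGG. A match is a description of the letters, and the windows were not tied to any measurement of binding.

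Lubiprostone in CF mice went with lower signals over most of the sterol branch, by small ratios. CF + lubiprostone was below CF control for 19 of the 22 genes, against 48.5% of all 11795 genes compared, and the median log2 ratio was -0.34, against 0.01 for all genes. No sterol gene passed 2-fold in this comparison, against 2.15% of all genes on the lower side and 3.2% on the higher, and none passed 3-fold, against 0.738% and 0.941%. This comparison shares the CF control array with that of CF control over WT control. The lowest was Tm7sf2, with signals of 469.8 in CF + lubiprostone, 924 in CF control, 501 in WT + lubiprostone and 496 in WT control, which put CF + lubiprostone 1.97-fold below CF control. All 6 mevalonate enzymes were lower, led by Fdps at log2 -0.76, Idi1 at -0.75 and Mvk at -0.67. For Mvk the 2 probe sets gave -1.17 and -0.16, so its place in that order rests on 1 of them. The 3 squalene genes had a smaller median, -0.28, which is the ratio of Lss. The 3 probe sets of Lss ranged between -0.63 and 0.28, and with dim signals at the array median its CF + lubiprostone signal was 0.96 of CF control. The 3 genes above CF control, where 51.5% of all genes were, were Msmo1 (log2 0.19), Hsd17b7 (0.14) and Insig2 (0.12). The probe sets of Msmo1 disagreed, at -0.38 and 0.76, and the brighter one was the lower. Insig2 was below CF control once each array was scaled to a common median, which moved the median of all genes to -0.12 and that of the sterol branch to -0.46. After quantile normalization it stayed above CF control, and the median of the sterol branch was -0.36.

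In WT mice, the ratios with lubiprostone were smaller and mostly of the other sign. WT + lubiprostone was above WT control for 17 of the 22 sterol genes, against 49.5% of all 11691 genes compared, with a median log2 ratio of 0.15, and none passed 2-fold in either direction, against 1.35% higher and 1.42% lower among all genes at 2-fold and 0.488% higher and 0.573% lower at 3-fold. Sqle was the highest at 1.52-fold, followed by Insig1 at log2 0.46 and Dhcr7 at 0.45. Sc5d was the lowest at -0.46, and all 3 of its probe sets were below WT control. Between the genotypes, 14 of the 22 genes were lower with lubiprostone in CF and higher with it in WT, 5 were lower in both and 3 were higher in both. Of all 12259 genes, 2485 were lower in CF and higher in WT, 3418 were lower in both and 3566 were higher in both. These 2 comparisons share no array. Whether the responses of the genotypes differed could not be tested.

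The plot of log2 ratios in the 4 comparisons shows the genotype ratios of the sterol enzymes mainly on the right of 0 with and without lubiprostone, and their lubiprostone ratios all within the 2-fold lines.

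**Figure D2:**
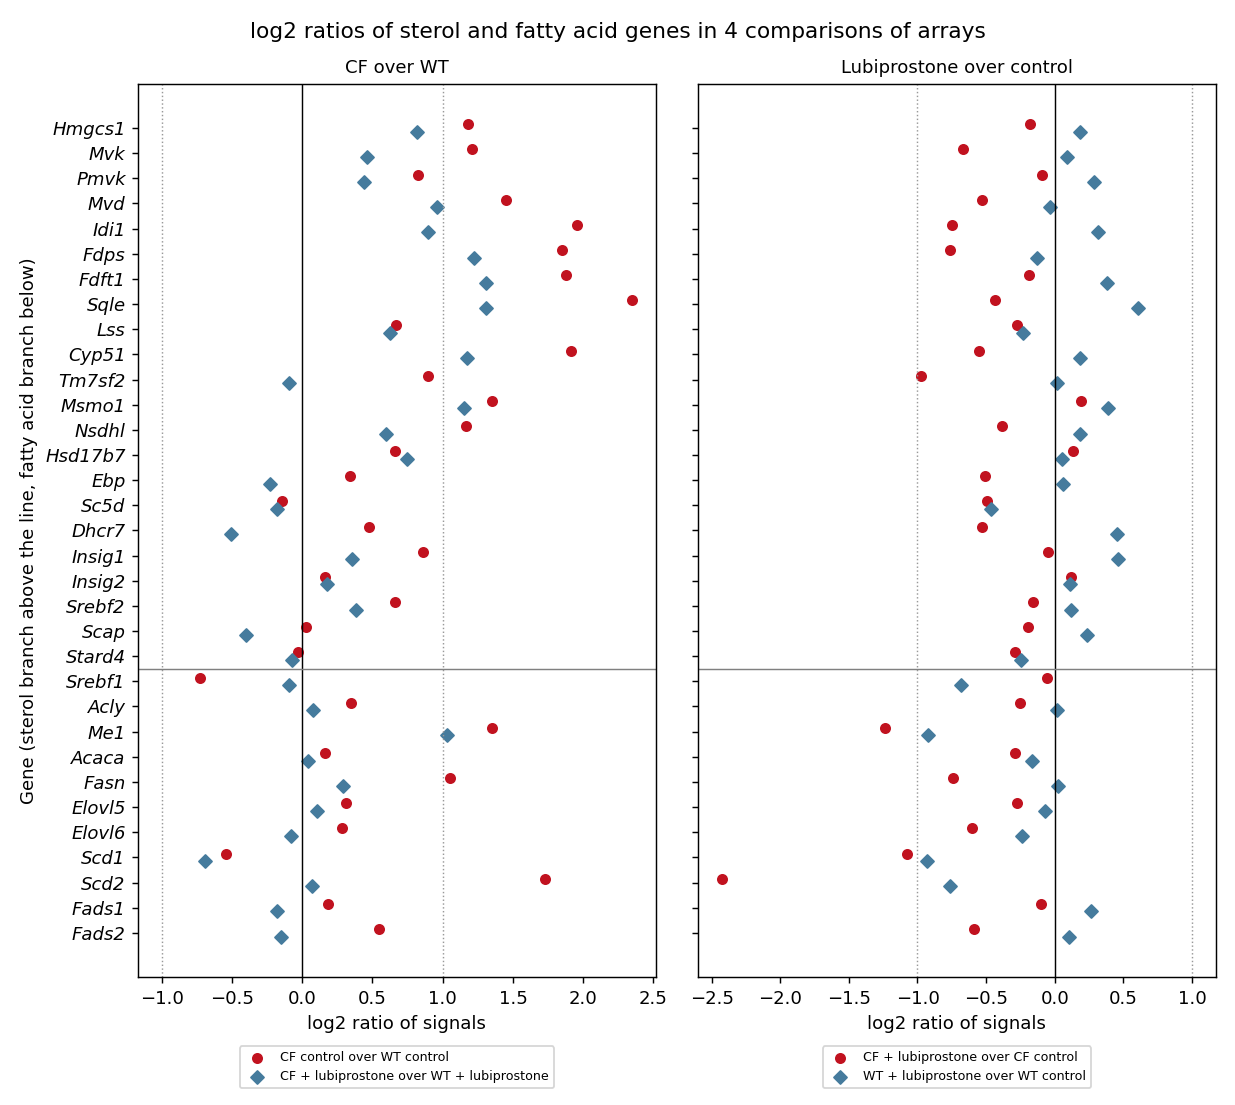
log2 ratio of signals of each of the 33 genes in the 4 comparisons of arrays, CF over WT in the left panel and lubiprostone over control in the right panel, with dotted lines at 2-fold and 1 point per comparison. Sqle lies at log2 2.35 for CF control over WT control and at 1.31 for CF + lubiprostone over WT + lubiprostone.

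Sterol enzymes were still higher in CF than in WT intestine when both groups had received lubiprostone. CF + lubiprostone exceeded WT + lubiprostone for 16 of the 22 sterol genes, against 50.3% of all 11792 genes compared, with a median log2 ratio of 0.53, against 0.00 for all genes. At least 2-fold higher were 5 of the 22, against 3.22% of all genes, and none was 3-fold higher, against 1.27%. The 5 were Fdft1 at 2.47-fold, Sqle at 2.47-fold, Fdps at 2.33-fold, Cyp51 at 2.26-fold (1.75-fold with dim signals at the median) and Msmo1 at 2.23-fold. Below them, Mvd was at log2 0.96, Hmgcs1 at 0.82 and Idi1 at 1.86-fold. The 6 genes lower in CF + lubiprostone, where 49.7% of all genes were lower and 1.25% at least 3-fold lower, were 4 enzymes of the steps after lanosterol, Dhcr7 (-0.51), Ebp (-0.23), Sc5d (-0.18) and Tm7sf2 (-0.09), with Scap (-0.40) and Stard4 (-0.07). Up to lanosterol, all 9 enzymes measured were higher in CF with and without lubiprostone, against 50.3% of all genes with it and 48.2% without it.

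The genotype ratio with lubiprostone can be set against that without it, since these comparisons share no array. Over the 22 sterol genes Pearson's r was 0.87 and Spearman's rho 0.86, against an r of 0.45 and a rho of 0.37 over all 12259 genes. These are correlations over genes of 1 pathway on 4 arrays, and the genes are not independent replicates. The ratio without lubiprostone was the larger by a median of 0.50 on the log2 scale. The same 16 genes were higher in both comparisons, 2 were lower in both (Sc5d and Stard4), and 4 were higher without and lower with lubiprostone. Of all 12259 genes, 3702 were higher in both, 3982 lower in both and 2142 higher without and lower with it.

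Genes of sterol removal and uptake, their regulators included, mostly had ratios of the opposite sign. Of a list of 13 such genes, 10 were measured, and in 9 of the 10 the CF control signal was below that of WT control, against 51.8% of all genes, and the median log2 ratio was -0.67. Abca1, which exports cholesterol to apolipoprotein A-I, had signals of 204 in CF + lubiprostone, 203 in CF control, 669.9 in WT + lubiprostone and 934 in WT control. Abcg8, which with Abcg5 returns sterols to the gut lumen, had signals of 1377 in CF + lubiprostone, 1068 in CF control, 2992 in WT + lubiprostone and 3139 in WT control. Both WT pools exceeded both CF pools for these genes, and CF control was 4.60-fold below WT control for Abca1 and 2.94-fold for Abcg8. Abcg5 followed at log2 -1.04, and the 3 genes at 2-fold, 1 of them at 3-fold, stand against 4.84% and 1.82% of all genes. Npc1l1, the carrier of sterol uptake, was at -0.57, and Npc2, a lysosomal sterol carrier, was the only one above 1 (0.38). With lubiprostone in both groups, 8 of the 10 were lower in CF, against 49.7% of all genes, with a median of -0.73. At least 2-fold lower were 2 of them, against 3.41% of all genes, and 1, Abca1 at 3.28-fold, was 3-fold lower, against 1.25%. Between lubiprostone and control pools this list had a median log2 ratio of 0.02 in CF and -0.05 in WT. No gene was at 2-fold, against 3.2% of all genes higher and 2.15% lower in CF, and 1.35% and 1.42% in WT. The CF median became -0.11 with arrays scaled to a common median and -0.003 after quantile normalization. Of 8 genes of isoprenoid side branches, which draw on the same pyrophosphates for dolichol, ubiquinone and protein prenylation, 6 were measured. None was at 2-fold in CF control over WT control, against 2.8% of all genes higher and 4.84% lower. The median log2 ratio of the 6 was 0.11 in that comparison. It was 0.02 for CF + lubiprostone over CF control, 0.06 for WT + lubiprostone over WT control and 0.05 for CF + lubiprostone over WT + lubiprostone.

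In the plot of both genotype ratios, the sterol enzymes lie mainly in the upper right and the efflux and uptake genes in the lower left.

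**Figure D3:**
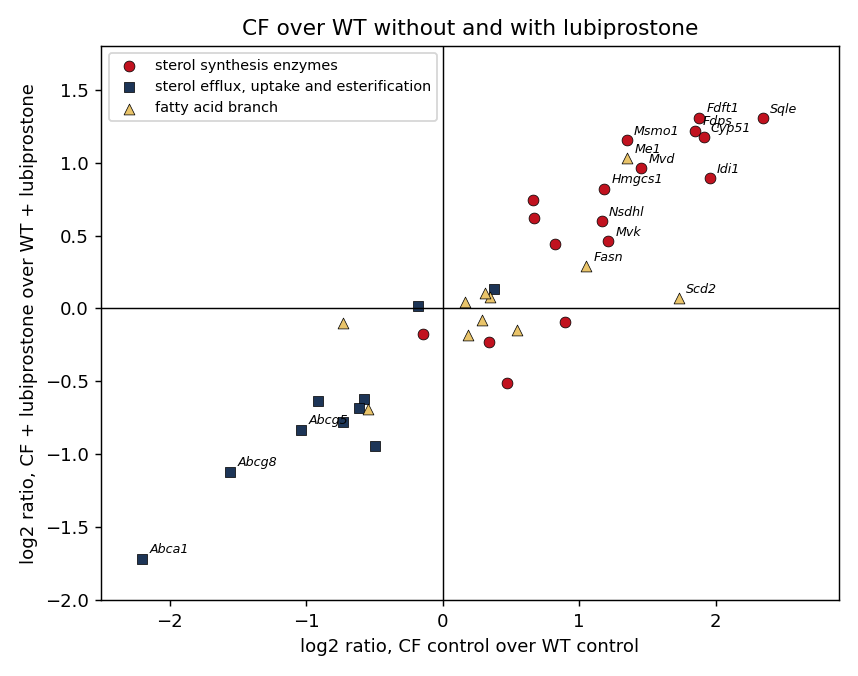
log2 ratio of CF + lubiprostone over WT + lubiprostone (vertical) against that of CF control over WT control (horizontal), 1 point per gene. The genes are the sterol synthesis enzymes, the fatty acid branch and the list of sterol efflux, uptake and esterification, of which no esterification gene was measured. Sqle lies at 2.35 and 1.31 and Abca1 at -2.20 and -1.71, while Scd2 lies at 1.73 without and 0.07 with lubiprostone.

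The fatty acid branch was less uniform between genotypes. CF control was above WT control for 9 of the 11 genes, against 48.2% of all genes, with a median log2 ratio of 0.31. At least 2-fold higher were 3 of the 11 (Scd2, Me1 and Fasn), against the 2.8% of all genes. Of these 1, Scd2, was at least 3-fold higher, against 1.16%. Srebf1, the gene of SREBP-1, was 1 of the 2 lower genes, and the other was Scd1, whose probe sets disagreed. The single kept probe set of Srebf1 had signals of 972 in CF + lubiprostone, 1010.4 in CF control, 1039 in WT + lubiprostone and 1672 in WT control, so that WT control stood above the other 3 pools and CF control was 1.65-fold below it.

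Of the enzymes of synthesis, Fasn, the fatty acid synthase that makes palmitate, had signals of 844 in CF + lubiprostone, 1409 in CF control, 691 in WT + lubiprostone and 679.9 in WT control, with CF control above the other 3 pools and 2.07-fold above WT control. Me1, the cytosolic malic enzyme that supplies NADPH for synthesis, had signals of 859 in CF + lubiprostone, 2028 in CF control, 420.0 in WT + lubiprostone and 795 in WT control. CF control exceeded WT control 2.55-fold, both probe sets were higher (log2 1.60 and 1.10), and the lubiprostone pool was the lower of the pair in both genotypes. Acly, which makes cytosolic acetyl-CoA from citrate, and Acaca, which carboxylates it to malonyl-CoA, differed little, with log2 ratios of 0.35 and 0.16 for CF control over WT control. The elongases Elovl5, which acts on polyunsaturated fatty acids, and Elovl6, which extends palmitate, were at 0.31 and 0.28. For Elovl6 the probe sets disagreed, and the brightest had signals of 3079 in CF + lubiprostone, 4736 in CF control, 3153 in WT + lubiprostone and 3062 in WT control. The desaturases Fads1 and Fads2, which make long polyunsaturated fatty acids, were at 0.19 and 0.54. Fads2 had signals of 546 in CF + lubiprostone, 822 in CF control, 606 in WT + lubiprostone and 564 in WT control, highest in CF control.

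**Figure D4:**
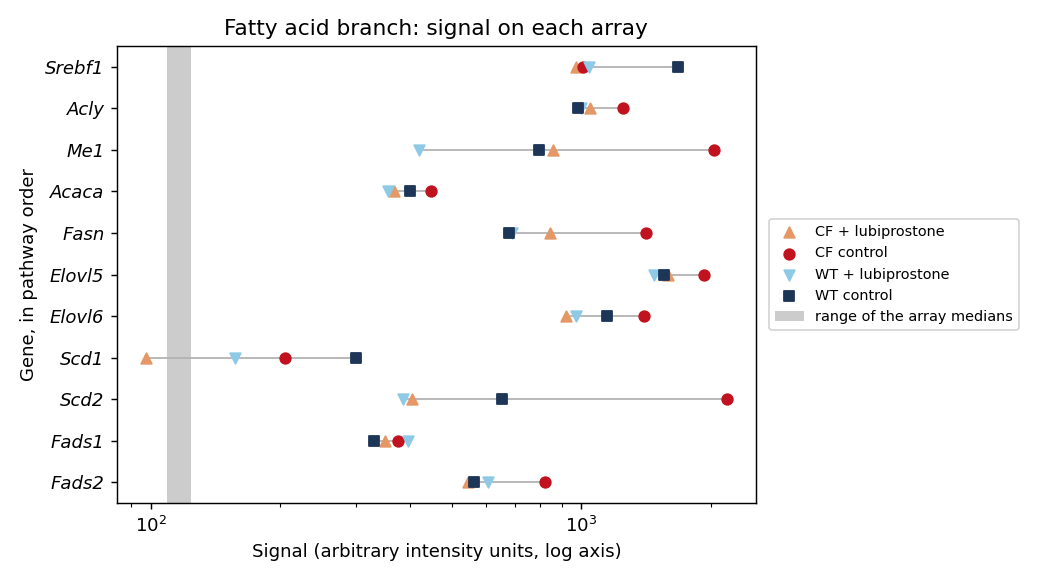
Signal (arbitrary intensity units, log axis) of each fatty acid branch gene on the 4 arrays, 1 point per array, with the range of the array medians in grey. Scd2 had 404 in CF + lubiprostone, 2173 in CF control, 385 in WT + lubiprostone and 654 in WT control.

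With lubiprostone, the CF + lubiprostone signal was below that of CF control for all 11 fatty acid genes, against 48.5% of all genes, and the median log2 ratio was -0.59, against 0.01. At least 2-fold lower were 3 of the 11 (Scd2, Me1 and Scd1), against the 2.15% of all genes, and 1, Scd2, was at least 3-fold lower, against 0.738%. The Scd1 ratio rests in part on dim signals and was log2 -0.65 with those set to the array median, which leaves 2 genes at 2-fold. Me1 was 2.36-fold lower. Fasn was at log2 -0.74, Elovl6 at -0.61 and Fads2 at -0.59, and the smallest ratio was that of Srebf1 at -0.06. Among WT mice the lubiprostone signal was the lower for 7 of the 11 genes, against 50.5% of all genes. The median log2 ratio was -0.17, and none was at 2-fold, against 1.35% of all genes higher and 1.42% lower. The 4 with the lowest ratios in WT were Scd1 (-0.93), Me1 (-0.92), Scd2 (-0.76) and Srebf1 (-0.69). Thus 7 genes were lower with lubiprostone in both genotypes, and 4 (Acly, Fasn, Fads1 and Fads2) were lower with it in CF and slightly higher in WT, where 3418 and 2485 of all 12259 genes did the same.

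Scd1 and Scd2 are stearoyl-CoA desaturases, which make oleate and palmitoleate, and Scd2 had the widest range over the arrays among the fatty acid genes. It had 3 probe sets, all high on the CF control array alone. The brightest had signals of 1444 in CF + lubiprostone, 7539.7 in CF control, 1206 in WT + lubiprostone and 1985 in WT control. The middle one had signals of 373 in CF + lubiprostone, 1983 in CF control, 419 in WT + lubiprostone and 676 in WT control, and the dimmest 123 in CF + lubiprostone, 686 in CF control, 113 in WT + lubiprostone and 209 in WT control. CF control exceeded WT control 3.32-fold over the 3, rank 115 from the top, and CF + lubiprostone was 5.37-fold below CF control, rank 33 from the bottom among 11795 genes. The probe sets spanned log2 1.55 to 1.93 in the first comparison and -2.48 to -2.38 in the second. Both ratios use the CF control array, so a high value on that array alone would give both. Between the lubiprostone pools Scd2 was about equal, at log2 0.07, and WT + lubiprostone was 1.70-fold below WT control (1.65-fold with dim signals at the median).

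Scd1 had 2 probe sets, and they disagreed on the genotype comparison. The brighter one had signals of 143 in CF + lubiprostone, 313 in CF control, 261 in WT + lubiprostone and 880.2 in WT control, highest in WT control. The dimmer one had signals of 66.5 in CF + lubiprostone, 135 in CF control, 94.9 in WT + lubiprostone and 102 in WT control and lay below the array median on every array but CF control. CF control over WT control was log2 -1.49 for the brighter probe set and 0.40 for the dimmer, so that no direction can be given for the gene. In both genotypes the lubiprostone pool was the lower for both probe sets. With dim signals at the median, CF + lubiprostone was at least 1.57-fold below CF control for Scd1, and WT + lubiprostone at least 1.85-fold below WT control. Scd1 and Scd2 are close paralogs, and whether their probes share signal was not tested.

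**Figure D5:**
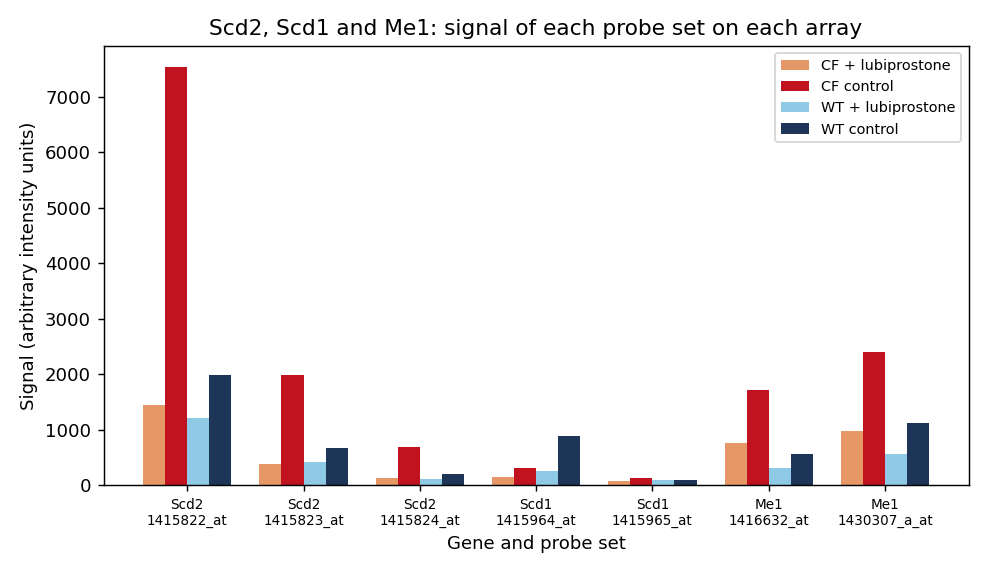
Signal (arbitrary intensity units, linear axis from 0) of each kept probe set of Scd2, Scd1 and Me1 on the 4 arrays, 1 bar per array and no error bars because each group is 1 array. All 3 Scd2 probe sets were highest in CF control, where the brightest reached 7539.7, and the brighter Scd1 probe set was highest in WT control, at 880.2.

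When both groups had received lubiprostone, the fatty acid branch showed no common direction between genotypes. CF + lubiprostone was above WT + lubiprostone for 6 of the 11 genes, against 50.3% of all genes, with a median log2 ratio of 0.04, and 1 gene, Me1, was at 2-fold (2.05-fold), against 3.22% of all genes. Both probe sets of Me1 were higher in CF + lubiprostone, at log2 1.27 and 0.79. A further list of 22 lipogenesis genes had a median log2 ratio of 0.25 over the 18 that could be compared in CF control over WT control, with 2 at 2-fold higher, against 2.8% of all genes. These were Aacs, which activates acetoacetate for lipid synthesis, with signals of 439 in CF + lubiprostone, 633 in CF control, 295 in WT + lubiprostone and 267 in WT control, and Pgd, which supplies NADPH in the pentose phosphate pathway, with signals of 7039.9 in CF + lubiprostone, 10838 in CF control, 5473 in WT + lubiprostone and 5046 in WT control. Both were highest in CF control, as Fasn, Me1 and Scd2 were. All of these were picked by their CF control over WT control ratio, a choice that favours a high CF control signal. Of the 18 genes, 12 had a ratio above 1 and 6 a ratio below 1, the lowest being Mlxipl at log2 -0.78. In CF + lubiprostone over CF control, the median of that list was -0.01 and 2 genes were at least 2-fold higher, against 3.2% of all genes, among them Dgat2, an acyltransferase of triglyceride synthesis, with signals of 5299 in CF + lubiprostone, 2588 in CF control, 3994 in WT + lubiprostone and 3989 in WT control. The other was Acacb, the mitochondrial acetyl-CoA carboxylase, which was below the array median on 3 of the 4 arrays. The list's median log2 ratio was 0.12 for lubiprostone in WT mice and 0.18 for CF over WT with lubiprostone in both.

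Markers of other cell types also differed between the pools, and their part in the results was not tested. Adipocytes express many lipogenic genes. Of 9 adipocyte markers 7 were on the array, and the summed signal of their brightest probe sets was 4960.5 in CF + lubiprostone, 3369.5 in CF control, 3709.9 in WT + lubiprostone and 3886 in WT control, with Lep and Retn below the median on all arrays. Adipoq, an adipocyte hormone, had signals of 1.56 in CF + lubiprostone, 99.5 in CF control, 15.3 in WT + lubiprostone and 173 in WT control, below the array median on all arrays but that of WT control. The lipid-binding Fabp4 had signals of 2586 in CF + lubiprostone, 1184 in CF control, 1278 in WT + lubiprostone and 1631 in WT control. The lipid droplet gene Cidec had signals of 1060.4 in CF + lubiprostone, 724 in CF control, 873 in WT + lubiprostone and 978 in WT control. Fabp4 and Cidec were highest in CF + lubiprostone, but Lipe and Plin4 were not. Lipe had signals of 632 in CF + lubiprostone, 593 in CF control, 935 in WT + lubiprostone and 930 in WT control. For Plin4 they were 156 in CF + lubiprostone, 167 in CF control, 176 in WT + lubiprostone and 150 in WT control. The 4 pancreatic acinar markers measured summed to 4516 in CF + lubiprostone, 19813 in CF control, 1464 in WT + lubiprostone and 16916 in WT control, lower in the lubiprostone pool of both genotypes. The 5 smooth muscle markers all had CF control above WT control, against 48.2% of all genes, by a median log2 ratio of 0.50. All 5 had CF + lubiprostone below CF control, against 48.5% of all genes, by a median of -0.30. The 10 villus enterocyte markers all had CF control below WT control, against 51.8% of all genes, by a median log2 ratio of -0.19. Once each array was scaled to a common median only 6 of the 10 did and their median was -0.013. After quantile normalization all 10 did, with a median of -0.39. As deposited, 2 of the 10, Lct (log2 -2.91) and Apob (-1.40), were at least 2-fold lower, against 4.84% of all genes. Of these 1, Lct, was at least 3-fold lower, against 1.82%. The crypt and dividing cell markers summed to 19668 in CF + lubiprostone, 30172 in CF control, 27085 in WT + lubiprostone and 28730.4 in WT control. Of the 7 measured, 4 had CF control above WT control, against 48.2% of all genes, and 3 below, with a median log2 ratio of 0.08. Those below included Lgr5 (-0.78) and Ascl2 (-1.22), which was dim on both CF arrays. With lubiprostone in both groups, 6 of the 7 were lower in CF, against 49.7% of all genes. The mast cell markers summed to 1164 in CF + lubiprostone, 10383 in CF control, 773 in WT + lubiprostone and 1063 in WT control, and the goblet markers to 90204 in CF + lubiprostone, 111356 in CF control, 88425 in WT + lubiprostone and 82832 in WT control.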

How the data were processed

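Small intestinal RNA was pooled by group and hybridized to 1 Affymetrix Mouse 430 2.0 array per group. The deposited values are signal intensities on a linear scale, which the authors extracted with GCOS and, per the labels, MAS5 (versions not given in the sources used here), and which were already scaled to a trimmed mean near 499.8 on each array. Of 45101 probe sets, 34958 carried 1 gene symbol, 932 carried several and were left out, and 9211 were not named by the platform annotation. Current symbols were taken by Entrez ID, which was found in RefSeq for 34754 probe sets. A probe set was kept when it reached the array's median on at least 1 array (21756 probe sets, 12259 genes, 66 of the members' 76 probe sets). Log2 ratios of a gene's kept probe sets were averaged, and a gene was compared when 1 of them reached the median on 1 of the 2 arrays. With 1 array per group no test was made, and the number of arrays limits the precision. The genes named were all 34 members, with related lists and cell type markers given mainly as counts and sums. Members, lists and thresholds were chosen with earlier results of these data known. Promoter windows came from RefSeq (GRCm38.p6) and were searched for 8 motifs. The alternatives were 2 scalings of the arrays, 2 filters on low signals, 2 other summaries of a gene's probe sets, dim signals set to the median, a pseudocount of 50, and leaving out probe sets that can take up other transcripts. Simulated arrays with 200 changed genes were used to test the step from probe set signals to gene ratios, and no other step. Python 3.11.15 was used with numpy 2.4.6, pandas 2.3.3, scipy 1.17.1 and matplotlib 3.10.9. The qRT-PCR, mucus, bacterial load and transit measurements of the study were not used here.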

Additional observations from a re-analysis of the deposited data

Results flagged for a closer look

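The lubiprostone ratio of the sterol branch pointed one way in CF and the other way in WT mice. The median log2 ratio over its 22 genes was -0.34 for CF + lubiprostone over CF control and 0.15 for WT + lubiprostone over WT control. Among single genes, 3 had ratios of opposite sign that each exceeded the median SD between probe sets of a gene. Taken over all 5569 genes with several probe sets, that SD was 0.26 in CF and 0.20 in WT. The branch median in WT, 0.15, was below that SD. Idi1 was at -0.75 in CF and 0.32 in WT, Sqle at -0.44 in CF and 0.61 in WT, and Dhcr7 at -0.53 in CF and 0.45 in WT. Sqle and Dhcr7 had 1 kept probe set each, so they had no spread of their own and were held against that of other genes. The differences between genotypes were not tested, since each group is 1 array of pooled RNA.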

How the results depend on the processing

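Of 360 values of the branches under 9 alternatives, 341 kept their direction and stayed within 1.5 times the reported count or within the spread between probe sets, and of 1180 values of single genes 1124 moved by less than that spread and 56 moved by more, some with a change of sign among ratios below 2-fold. Of 197 values of the 22 gene ratios at 2-fold, 186 were still at 2-fold in the same direction. The sterol median for CF control over WT control lay between 0.83 and 1.06, with 9 to 13 genes at least 2-fold higher, and that for CF + lubiprostone over CF control between -0.46 and -0.28. Scaled to the same median, 1 sterol gene (Tm7sf2) had CF + lubiprostone 2-fold below CF control, and the genes of the whole array at 3-fold split as 174 higher and 165 lower for CF control over WT control, against 137 and 215 as deposited, and as 85 and 108 for CF + lubiprostone over CF control, against 111 and 87 as deposited and 89 and 105 after quantile normalization. With no filter on low signals, 3 sterol genes had CF control 3-fold above WT control, 1 (Scap) had it 2-fold and 3-fold below, and 1 (Scap) had CF + lubiprostone 2-fold and 3-fold above CF control, since dim probe sets of Fdft1, Fdps and Scap entered. Scd1 gave 1 fatty acid gene with CF control, and 1 with WT + lubiprostone, 2-fold below WT control with the 75th percentile filter, with linear means and with the brightest probe set, and 1 with WT + lubiprostone 3-fold below with the first and last of these. Me1 left 0 fatty acid genes with CF + lubiprostone 2-fold above WT + lubiprostone under linear means, the brightest probe set or 50 added to signals. The fatty acid median changed sign to 0.012 for WT + lubiprostone over WT control with the brightest probe set, and to -0.046 for CF + lubiprostone over WT + lubiprostone without probe sets that can take up other transcripts. No paired analysis was possible because each group is 1 array of pooled RNA. No replicate could be left out for the same reason.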
